A study of Homo sapiens with 9 samples.

Results

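The genes described here are 10 rapidly inducible genes of the EGR, NR4A, KLF and IER families: EGR1, NR4A1, NR4A2, NR4A3, KLF2, KLF4, KLF6, IER2, IER3 and IER5. They were found by symbol among the 26929 genes of the table, and all 10 were present. Transcripts were counted in MV4-11, a cell line grown from human acute myeloid leukaemia that carries a KMT2A fusion and an internal tandem duplication of the receptor kinase FLT3. Cells had been exposed for 24 h to JPX-0700, to JPX-0750 or to the vehicle DMSO, with 3 libraries per group and 9 in all. Both compounds are named by the series title as degraders that act on STAT3 and on STAT5, and their doses were not given in the sources used here. One line stands for the disease here, and the labels do not say whether replicates were separate cultures. Every p-value therefore measures the spread between these libraries, which may be technical.

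Most of these genes encode transcription factors or nuclear cofactors, and most were first described as genes switched on within minutes of a growth factor or stress signal. In the textbook scheme, ERK phosphorylates ternary complex factors that sit with SRF on CArG boxes of the EGR1 promoter, ERK5 acts through MEF2 on KLF2, and CREB acts through TGACG elements on NR4A genes. EGR1 is a zinc finger factor held in check by the NAB corepressors. NR4A1, NR4A2 and NR4A3 are orphan nuclear receptors that work without a known ligand, and loss of Nr4a1 together with Nr4a3 causes myeloid leukaemia in mice. KLF2, KLF4 and KLF6 are zinc finger factors tied to quiescence, monocyte differentiation and growth arrest. IER2 and IER5 are encoded by single exons, and IER5 recruits the phosphatase PP2A to the heat shock factor HSF1.

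The promoter windows of 4 members are shown. Those of EGR1, NR4A3 and KLF2 hold a match to an element of the routes named above. That of IER5 holds GAANNTTC, the core pair of heat shock sites, which is not part of those routes. KLF4 and IER2 also hold TGACG matches and are not shown. Each window shown is the 250 bases before the annotated start in RefSeq on GRCh38.p14, read 5′ to 3′ on the plus strand, and capitals mark the matches. EGR1 lies at chr5:138465229-138465478, NR4A3 at chr9:99821635-99821884, KLF2 at chr19:16324576-16324825 and IER5 at chr1:181088450-181088699. In EGR1 the capitals mark a TTCNNNGAA match, a pair of CArG boxes and a pair of TGACG motifs on the minus strand, written CGTCA. In NR4A3 they mark 4 matches to TGACG, 1 of them on the minus strand and written CGTCA, in KLF2 a MEF2 site and in IER5 a GAANNTTC match.
EGR1: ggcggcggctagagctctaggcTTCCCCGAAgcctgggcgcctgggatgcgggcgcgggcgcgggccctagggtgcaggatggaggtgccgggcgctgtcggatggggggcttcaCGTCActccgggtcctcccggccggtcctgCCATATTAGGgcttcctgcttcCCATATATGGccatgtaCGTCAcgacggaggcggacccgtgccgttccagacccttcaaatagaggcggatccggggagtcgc
NR4A3: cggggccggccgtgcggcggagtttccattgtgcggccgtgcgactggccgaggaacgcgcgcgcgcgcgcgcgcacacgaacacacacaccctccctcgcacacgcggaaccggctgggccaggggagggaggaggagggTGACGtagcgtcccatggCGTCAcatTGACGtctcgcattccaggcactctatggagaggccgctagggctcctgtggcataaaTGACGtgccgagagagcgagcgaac
KLF2: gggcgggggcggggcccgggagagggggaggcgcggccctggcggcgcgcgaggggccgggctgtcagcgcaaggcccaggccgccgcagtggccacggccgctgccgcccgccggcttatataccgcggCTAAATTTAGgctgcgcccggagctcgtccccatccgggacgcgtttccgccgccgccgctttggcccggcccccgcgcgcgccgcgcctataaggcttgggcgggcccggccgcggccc
IER5: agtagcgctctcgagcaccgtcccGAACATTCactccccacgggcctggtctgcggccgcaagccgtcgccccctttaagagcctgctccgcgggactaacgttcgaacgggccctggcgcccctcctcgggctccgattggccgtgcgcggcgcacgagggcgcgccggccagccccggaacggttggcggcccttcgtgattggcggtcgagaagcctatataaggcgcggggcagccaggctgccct

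Motifs were searched on both strands in the 9 windows that RefSeq gave for 8 members (NR4A1 has 2 starts) and in all 34943 windows of the table. For both NR4A1 windows, KLF4 and IER2, the bases after the RefSeq start were not found in the principal GENCODE v29 transcript. Matches in those windows, or their absence, may therefore not concern the promoter of that transcript. The CArG box was in 1 of the 9 member windows, EGR1, and in 1.16% of all windows. TGACG was in 4 member windows (EGR1, NR4A3, KLF4 and IER2) and in 21.2% of all, while its full palindrome TGACGTCA, which contains it, was in 0 member windows and 1.63% of all. The MEF2 site was in KLF2 and in 2.81% of all windows. TTCNNNGAA, the motif that STAT dimers bind, was in EGR1 and in 6.56% of all, and GAANNTTC, the core pair of heat shock sites, was in IER5 and in 5.8% of all. TGANTCA, the AP-1 motif, was in 0 member windows and 6.59% of all. GCGNGGGCG, the motif that EGR1 itself binds, is left in lower case above. It was in 4 member windows (EGR1, KLF2, KLF4 and KLF6) and in 8.39% of all. A match is a run of letters and says nothing of binding in these cells.

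**Figure D1:**
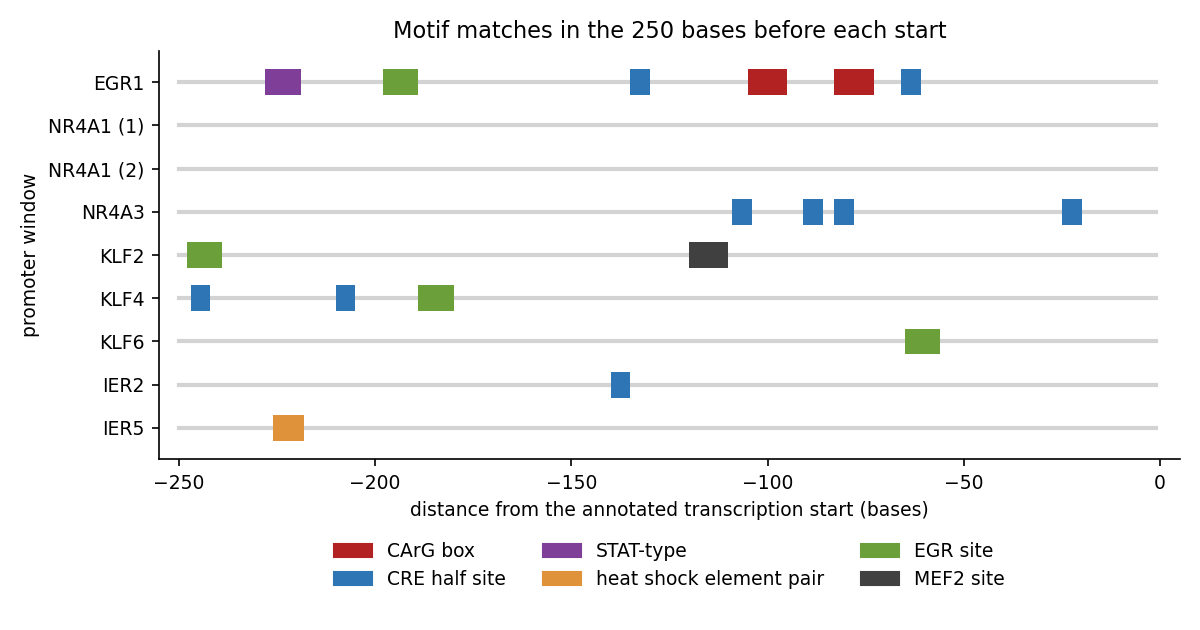
Positions of motif matches in the 250 bases before the annotated start of each member's promoter window, in bases from the start, with 1 row per window and 1 colour per motif. The EGR1 window holds both CArG boxes, between 105 and 74 bases before the start, and the NR4A3 window holds 4 TGACG matches.

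Depth differed between the groups and limits the weakly read members. JPX-0700 libraries held 739418 to 1852375 reads on genes, JPX-0750 libraries 726043 to 1941860 and DMSO libraries 2701317 to 6305586. One read was worth 2.78 to 4.61 normalised counts with JPX-0700, 1.67 to 4.55 with JPX-0750 and 0.383 to 0.898 with DMSO. JPX-0700 replicate 3, JPX-0750 replicate 3 and DMSO replicate 1 had the fewest genes with a read in their groups. JPX-0700 replicate 3 had 10027 genes on 1852375 reads and JPX-0750 replicate 3 had 10407 on 1941860, the most reads of their groups. DMSO replicate 1 had 9816 genes on 2701317 reads, the fewest reads of its group. Structured non-coding RNA took 8.6% to 10.3% of reads with JPX-0700, 11.6% to 13.7% with JPX-0750 and 0.0438% to 0.264% with DMSO, and its part in the results below was not tested. Summed myeloid markers were 2784 to 4213 normalised counts with JPX-0700, 2246 to 4313 with JPX-0750 and 5978 to 9120 with DMSO. CD33, FLT3, SPI1, LYZ, MEIS1, HOXA10, CSF1R and CD68 were read in all 9 libraries, PTPRC and CD4 in 8, ITGAM in 6 and HOXA9 in 3. The sum follows LYZ, with means of 1868, 1557 and 5336 in those groups. Means were also highest with DMSO for PTPRC (142, 194 and 304), CD33 (166, 184 and 283) and FLT3 (344.5, 251 and 461.5). The same held for HOXA10 (145.6, 75.1 and 174.2), CSF1R (13.3, 33.2 and 57.8) and CD4 (36.1, 115.3 and 177.9). The means of MEIS1 (392, 424 and 162), CD68 (124, 181 and 106.5) and ITGAM (12.7, 12.9 and 4.38) were lower with DMSO than with either compound. For SPI1 (203, 105.3 and 175) the DMSO mean lay between those of the compounds. HOXA9, a marker of KMT2A-rearranged leukaemia, was at 0 with JPX-0750 and at most 4.61 normalised counts in any library. Summed T and NK cell markers (7 of 8 in the table) were 22.4 to 80.6 with JPX-0700, 6.85 to 68.2 with JPX-0750 and 32.8 to 52.1 with DMSO. Epithelial, endothelial and fibroblast markers summed to 16.7 to 141.6, 136.9 to 174.9 and 163.7 to 305.3 in the same order of groups, with EPCAM, KRT19, CDH1, VWF and DCN at 0 in every library. With DMSO that sum came from KRT8, KRT18, PECAM1 and CDH5, its only markers with a read. B and plasma cell markers summed to 13.9 to 36.9, 5.00 to 40.9 and 7.67 to 17.1. Erythroid and megakaryocyte markers summed to 3.73 to 5.56, 0 to 13.6 and 0 to 2.68. In RNA from whole cultures a change in the share of cells that make a transcript and a change in the amount per cell cannot be told apart.

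Against DMSO, all 9 tested members had a fitted level above that of the vehicle with either compound, and none of them fell. With JPX-0700, EGR1, NR4A2, IER2 and IER5 rose, 4 of the 9 tested members, and 0 fell, where 5.28% of all 12301 genes tested rose and 0.496% fell (5.77% in all). With JPX-0750, EGR1, NR4A2, NR4A3, KLF2, IER2 and IER5 rose, 6 of 9, and 0 fell, where 3.9% of all genes rose and 0.0732% fell (3.98% in all). Rose and fell mean a Benjamini-Hochberg adjusted p under 0.05 in limma over all genes tested. An unadjusted p under 0.05 was found for 5 members and 19.6% of all genes with JPX-0700, and for 7 members and 14.2% of all genes with JPX-0750. The rise of NR4A3 and of KLF2 with JPX-0750 was close to that threshold, and JPX-0750 replicates 1, 2 or 3 or DMSO replicates 2 or 3, each left out alone, brought the 6 members down to 3. Without DMSO replicate 1 or JPX-0700 replicates 1 or 2 it was 4. With the fewest-gene library of each group left out, 7 members rose with each compound. In that fit 2601 of all 12301 genes were called with JPX-0700, 2158 higher and 443 lower. With JPX-0750 2559 were called in either direction. IER3, listed at 0 in every library, is in none of these counts.

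All 3 JPX-0700 values lay above all 3 DMSO values for 6 of 9 members, where 16.5% of all genes did so and 10.3% lay wholly below. All 3 JPX-0750 values did so for 8 of 9, where 19.7% of all genes did and 9.18% lay below. The median log2 fold change of the 9 was 2.93 with JPX-0700 and 4.42 with JPX-0750, where the median of all genes was 0.14 and 0.26. The members were chosen with earlier results of these data known, so their medians and counts, also the counts called above, are a description. They are so also because 5 of the 9 (NR4A1, NR4A2, NR4A3, KLF2 and KLF4) had a DMSO mean under the minimum of 5 normalised counts and entered the test through their treated libraries. Of the 4 that had at least that level with DMSO, EGR1, IER2 and IER5 rose with both compounds and KLF6 passed with neither. Scaling bears on the calls over all genes. Of 710 genes called with JPX-0700, 649 were higher, against 378 of 658 under total-sum scaling, 509 of 628 with TMM and 581 of 839 after quantile normalisation. For JPX-0750 480 of 489 were higher, against 303 of 360 under total-sum scaling and 528 of 630 after quantile normalisation. All 9 log2 fold changes over DMSO stayed above 0 under each of those scalings with either compound.

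**Figure D2:**
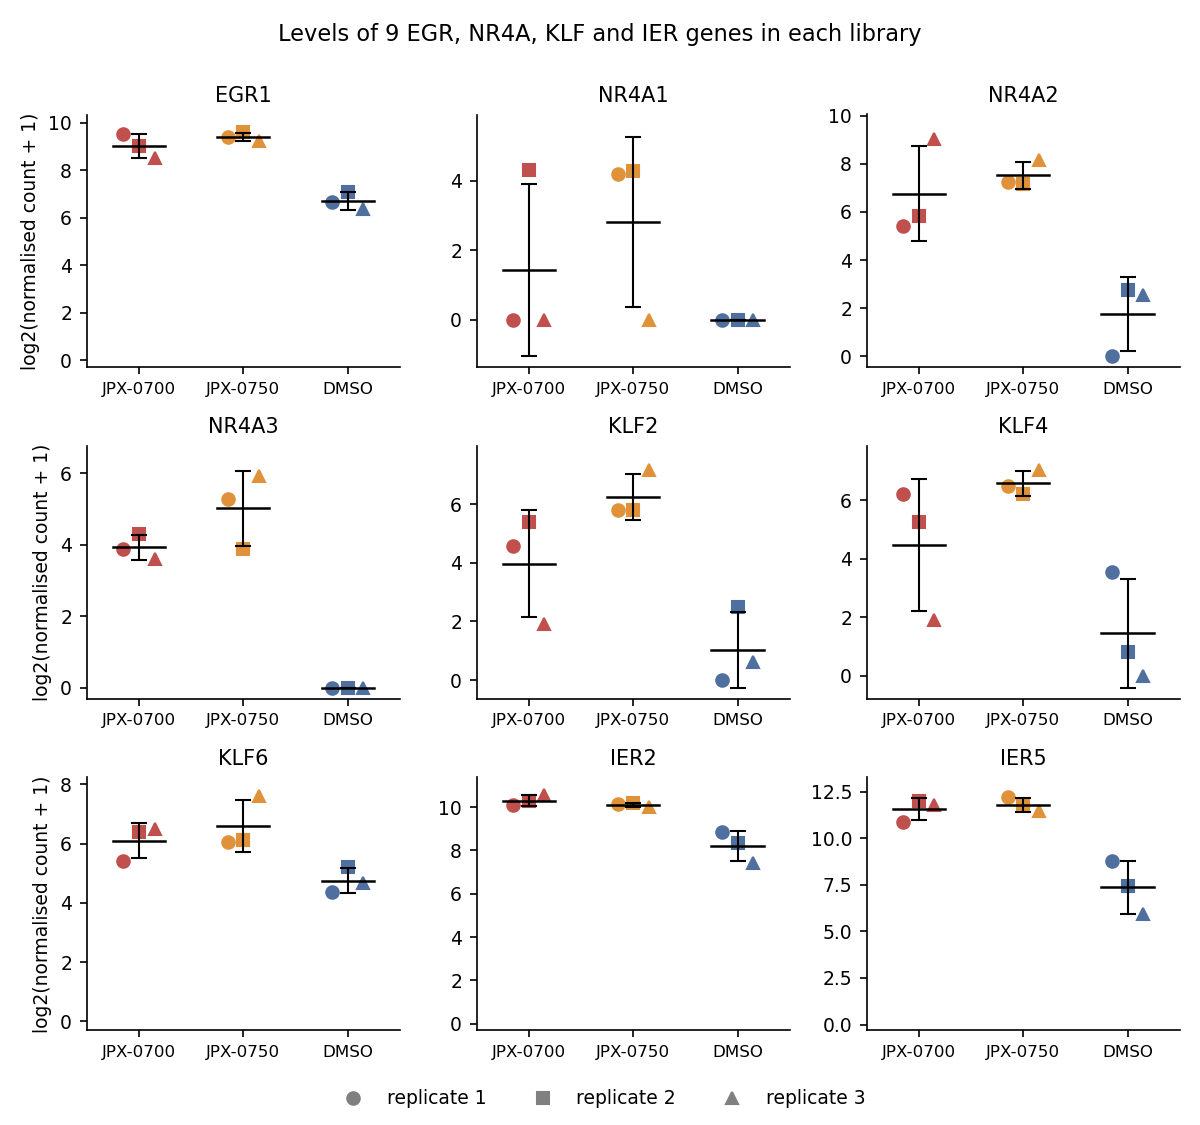
Levels of the 9 members with reads, as log2(normalised count + 1), in each of the 3 JPX-0700, 3 JPX-0750 and 3 DMSO libraries, with points for replicates, a line at each group mean and bars for the SD (n = 3 each). All 6 treated libraries sit above every DMSO library for EGR1, NR4A2, NR4A3, KLF6, IER2 and IER5.

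EGR1, the founding factor of the EGR family, had 728, 511 and 361 normalised counts with JPX-0700, 664, 773 and 601 with JPX-0750, and 101, 136 and 80.8 with DMSO. The 6 treated libraries were all above the 3 DMSO libraries, and the 2 compounds' ranges overlapped. Means were 533 ± 185 with JPX-0700, 680 ± 86.9 with JPX-0750 and 106 ± 27.9 with DMSO (SD, n = 3 each). The gene lies at chr5:138465479-138469303 on the plus strand of GRCh38.p14. Its log2 fold change in limma was 2.30 ± 0.49 (SE) with JPX-0700, 4.92-fold, with adjusted p = 0.0076. With JPX-0750 it was 2.70 ± 0.49, 6.49-fold, with adjusted p = 0.00207 in limma. Behind these values stood 425, 725 and 616 reads with JPX-0700, JPX-0750 and DMSO. Under total-sum scaling the JPX-0700 value was 1.57 with adjusted p = 0.0821 in limma, and over its alternatives adjusted p ran from 0.00258 to that value.

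The list of other EGR genes and their NAB corepressors had 3 tested of 5, and 0 rose or fell with either compound. EGR3, a close relative of EGR1, had 13.8, 22.4 and 189 normalised counts in its lowest, middle and highest JPX-0700 libraries. It had 13.6, 37.7 and 66.6 with JPX-0750 and 0, 0.538 and 0.767 with DMSO, where it rested on 3 reads. The DMSO mean of EGR3, 0.435, was under the minimum of 5, so EGR3 entered the test through its treated libraries. The ratio of EGR3 reads per scaled depth was 169.4 with JPX-0700 (exact counting interval 55.9 to 839.6) and 90.3 with JPX-0750 (29.3 to 451.5). Those intervals cover counting error, while limma, which sees the spread between libraries, gave EGR3 adjusted p = 0.0551 with JPX-0700 and 0.0908 with JPX-0750. The corepressor NAB2 had log2 fold changes of -0.63 with JPX-0700 and 1.11 with JPX-0750, with adjusted p = 0.86 and 0.806 in limma. NAB1 had 0.18 and -0.39 in the same comparisons. Of 14 reported target genes of EGR1, KLF2 and KLF6, 11 were tested and 1, GADD45A, rose with each compound, where 5.28% and 3.9% of all genes rose. GADD45A, a growth arrest gene that p53 and ATF4 also control, had a log2 fold change of 4.79 with JPX-0700 (adjusted p = 4.8e-05 in limma). With JPX-0750 it was 4.92 (adjusted p = 3.3e-05 in limma), and 5.52 without JPX-0750 replicate 3. The cell cycle inhibitor CDKN1A had 0.995 with JPX-0700 and 1.98 with JPX-0750, with adjusted p = 0.337 and 0.0544 in limma. The matrix protein gene THBS1 had 36, 5 and 2 reads with JPX-0700, JPX-0750 and DMSO, ratios of reads per scaled depth of 118.8 (30.6 to 1019) and 12.5 (2.05 to 131.7), and adjusted p = 0.0704 and 0.588 in limma. THBS1 too had a DMSO mean, 0.307, under the minimum of 5.

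Of the NR4A receptors, NR4A2, also called NURR1, was read in the most libraries. NR4A2 had 41.5, 55.9 and 520 normalised counts with JPX-0700, 151, 141 and 282 with JPX-0750, and 0, 5.75 and 4.85 with DMSO. Every treated library was above every DMSO library, but JPX-0700 replicate 3 was about an order of magnitude above the other libraries of its group. Means were 206 ± 272 with JPX-0700, 191 ± 78.5 with JPX-0750 and 3.53 ± 3.09 with DMSO (SD, n = 3 each). NR4A2 lies at chr2:156324437-156332721 on the minus strand of GRCh38.p14. In limma its log2 fold change was 4.99 ± 1.17 (SE) with JPX-0700 and 5.74 ± 1.17 with JPX-0750, with adjusted p = 0.0146 and 0.0058. The JPX-0700 value was 3.85 without JPX-0700 replicate 3, 5.66 without JPX-0700 replicate 1 and 4.10 without DMSO replicate 1, where limma gave adjusted p = 0.0596. The JPX-0750 value was 4.86 without DMSO replicate 1, and its call was lost without JPX-0750 replicate 3 (log2 fold change 5.43, adjusted p = 0.0562 in limma). The call with JPX-0700 was also lost when only JPX-0700 and DMSO entered the fit (adjusted p = 0.108). When the fewest-gene libraries were left out, the log2 fold changes were 2.97 with JPX-0700 and 4.55 with JPX-0750, with adjusted p = 0.0104 and 0.00221 in limma. Over the alternatives adjusted p ran from 0.00719 to 0.108 with JPX-0700 and from 0.00163 to 0.0562 with JPX-0750.

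NR4A3, also called NOR1, had 13.8, 18.6 and 11.1 normalised counts with JPX-0700, 37.7, 13.6 and 59.97 with JPX-0750, and 0 in all 3 DMSO libraries. It had reads in all 6 treated libraries, 12 with JPX-0700 and 50 with JPX-0750, although the DMSO libraries were deeper. A floor of 3 reads over the DMSO group was 0.538 normalised counts. The group means of NR4A3 were 27.0 times that floor with JPX-0700 and 69.0 times with JPX-0750. On pooled reads the ratios to the floor were 26.4 and 83.6, and JPX-0750 replicate 3 held 36 of the 50 JPX-0750 reads. These ratios take the treated values as exact and are not confidence limits. The pooled JPX-0750 ratio was 50.9 without JPX-0750 replicate 3 and 44.5 without DMSO replicate 2. The pooled JPX-0700 ratio was 14.1 without DMSO replicate 2. On the log2(normalised count + 1) scale limma gave adjusted p = 0.108 with JPX-0700 and 0.0453 with JPX-0750. The JPX-0750 call was lost in 14 of 19 alternatives. These include leaving out any 1 library other than JPX-0700 replicate 3, with adjusted p up to 0.212 in limma, against 0.000827 as the lowest over all alternatives. The JPX-0700 comparison passed without JPX-0700 replicate 3 (adjusted p = 0.0442 in limma). It also passed without JPX-0750 replicate 3 (0.0444) and with the fewest-gene library of each group left out (0.0117), and over the alternatives it ran from 0.00873 to 0.321. NR4A3 lies at chr9:99821885-99866891 on the plus strand and is the longest of the members.

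NR4A1, also called NUR77, was the most weakly read of the 9. NR4A1 had 0, 18.6 and 0 normalised counts with JPX-0700, 17.1, 18.2 and 0 with JPX-0750, and 0 in all 3 DMSO libraries. These are 5 reads in 1 JPX-0700 library and 9 reads in 2 JPX-0750 libraries, so 3 of 6 treated libraries had none. Without JPX-0700 replicate 2 no JPX-0700 read was left. In limma adjusted p was 0.636 and 0.44, and a change in either comparison was not detectable at this depth. NR4A1 lies at chr12:52022832-52059503 on the plus strand and overlaps AC025259.3 on the other strand. Since no source used here gives the counting strand, reads of such partners cannot be told apart.

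KLF2, a quiescence factor of lymphocytes and endothelium, had 23.0, 41.0 and 2.78 normalised counts with JPX-0700, 54.8, 54.6 and 142 with JPX-0750, and 0, 4.601 and 0.538 with DMSO. The 3 JPX-0750 libraries were above all 3 JPX-0700 libraries and all 3 DMSO libraries, while JPX-0700 replicate 3, with 1 read, fell within the DMSO range. Means were 22.3 ± 19.1 with JPX-0700, 83.7 ± 50.2 with JPX-0750 and 1.71 ± 2.52 with DMSO (SD, n = 3 each). KLF2 lies at chr19:16324826-16328685 on the plus strand. Its log2 fold change in limma was 2.93 ± 1.43 (SE) with JPX-0700 (adjusted p = 0.268) and 5.22 ± 1.43 with JPX-0750 (adjusted p = 0.0473). The JPX-0700 value was 2.22 without JPX-0700 replicate 2, 3.95 without JPX-0700 replicate 3 (adjusted p = 0.059 in limma) and 3.66 without DMSO replicate 2. The JPX-0750 call was lost in 13 of 19 alternatives, among them leaving out any 1 library other than JPX-0700 replicate 3, and adjusted p ran from 0.00255 to 0.186 in limma. The JPX-0750 value was 5.94 without DMSO replicate 2 and 4.25 without the fewest-gene libraries, where it passed with adjusted p = 0.0131 in limma. In that fit KLF2 with JPX-0700 was 3.44 with adjusted p = 0.026 in limma.

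KLF4, a reprogramming factor that also drives monocyte differentiation, had 73.7, 37.3 and 2.78 normalised counts with JPX-0700, 89.0, 72.8 and 129.9 with JPX-0750, and 10.8, 0.767 and 0 with DMSO. As for KLF2, JPX-0700 replicate 3 had 1 KLF4 read and lay within the DMSO range, whereas the 3 JPX-0750 libraries lay above it. Means were 37.9 ± 35.5 with JPX-0700, 97.2 ± 29.5 with JPX-0750 and 3.85 ± 6.01 with DMSO (SD, n = 3 each). KLF4 lies at chr9:107484852-107489769 on the minus strand. The log2 fold change was 3.01 ± 1.45 (SE) with JPX-0700 and 5.12 ± 1.45 with JPX-0750, with adjusted p = 0.264 and 0.0587 in limma. The JPX-0700 value was 4.28 without JPX-0700 replicate 3, 2.13 without JPX-0700 replicate 1, 4.06 without DMSO replicate 1 and 2.28 without DMSO replicate 3. The JPX-0750 value was 6.17 without DMSO replicate 1 and 4.39 without DMSO replicate 3, and DMSO replicate 1 held 12 of the 14 DMSO reads. KLF4 passed with JPX-0750 in 7 of 19 alternatives, among them the fit without JPX-0700 replicate 3 (adjusted p = 0.0149 in limma). Leaving out the fewest-gene libraries gave 5.33 with JPX-0700 and 5.94 with JPX-0750, with adjusted p = 0.00394 and 0.00231 in limma.

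KLF6, a zinc finger factor tied to growth arrest, had 41.5, 82.0 and 88.9 normalised counts with JPX-0700, 65.0, 68.2 and 193 with JPX-0750, and 19.8, 36.0 and 24.2 with DMSO. All 6 treated libraries were above the 3 DMSO libraries. Log2 fold changes were 1.34 ± 0.88 (SE) with JPX-0700 and 1.84 ± 0.88 with JPX-0750, with adjusted p = 0.409 and 0.354 in limma. KLF6 passed in 0 of 20 alternatives with either compound, and lies at chr10:3775996-3785209 on the minus strand. Of 14 other KLF genes 8 were tested, and 0 rose or fell with either compound. Their median log2 fold change was 1.05 with JPX-0700 and 1.41 with JPX-0750. KLF7 had 2.22 and 1.497, with adjusted p = 0.171 and 0.466 in limma, and KLF10, a target of TGF-beta signalling, had 1.28 and 1.33, with 0.378 and 0.458. KLF5 had 1.25 and 2.67, and KLF9, a glucocorticoid-induced gene, had 0.85 and 2.85. In the fit without the fewest-gene libraries 2 of the 8 rose with JPX-0700 and 0 with JPX-0750. Of all 12301 genes, 2158 rose in that fit with JPX-0700, and 2559 were called in either direction with JPX-0750.

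IER5, the partner of HSF1 and PP2A, had 1871, 4059 and 3588 normalised counts with JPX-0700, 4687, 3502 and 2774 with JPX-0750, and 436, 173 and 59.8 with DMSO. The lowest treated library was above the highest DMSO library, and the DMSO libraries differed severalfold among themselves. Means were 3172 ± 1151 with JPX-0700, 3654 ± 965 with JPX-0750 and 223 ± 193 with DMSO (SD, n = 3 each). IER5 lies at chr1:181088700-181092900 on the plus strand. Its log2 fold change was 4.18 ± 0.58 (SE) with JPX-0700 and 4.42 ± 0.58 with JPX-0750, 18.1-fold and 21.5-fold, with adjusted p = 0.000105 and 5.5e-05 in limma. Its values without DMSO replicate 1 were 4.87 and 5.12, and without DMSO replicate 3 they were 3.45 and 3.70, with the call kept in 20 of 20 alternatives for each compound. Its JPX-0750 value was 5.30 without the fewest-gene libraries. IER5L, a paralogue named here after its values were seen, had 214, 359 and 559 normalised counts in its lowest, middle and highest JPX-0700 libraries, 455, 509 and 524 with JPX-0750, and 4.22, 5.38 and 22.4 with DMSO. IER5L had log2 fold changes of 5.25 and 5.75, with adjusted p = 9.8e-05 and 3.6e-05 in limma, and 5.93 and 6.43 without DMSO replicate 1. Of the list of IER5 partners, HSF1 and PP2A subunits 7 of 8 were tested, and 0 rose or fell with either compound, with a median log2 fold change of -0.94 with JPX-0700 and -0.43 with JPX-0750. The catalytic subunit gene PPP2CA had -0.94 and -1.75, with adjusted p = 0.452 and 0.207 in limma. The scaffold genes PPP2R1A and PPP2R1B had -1.88 and -0.96, and -1.95 and -0.72, and the regulatory subunit gene PPP2R2D had -1.82 and -0.43. With the fewest-gene libraries left out 1 of the 7 fell with each compound. Of all 12301 genes, 443 fell in that fit with JPX-0700, and 2559 were called in either direction with JPX-0750.

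IER2, a nuclear protein tied to cell motility, had 1083, 1230 and 1517 normalised counts with JPX-0700, 1130, 1155 and 1028 with JPX-0750, and 457, 319 and 173 with DMSO. The JPX-0750 libraries lay close together, and the 6 treated libraries were above all DMSO libraries. Means were 1277 ± 221 with JPX-0700, 1104 ± 67.3 with JPX-0750 and 316 ± 142 with DMSO (SD, n = 3 each). IER2 lies at chr19:13150411-13154911 on the plus strand, with AC011446.2 opposite. Its log2 fold change was 2.10 ± 0.45 (SE) with JPX-0700, 4.30-fold, and 1.91 ± 0.45 with JPX-0750, 3.75-fold, with adjusted p = 0.0072 and 0.018 in limma. The JPX-0750 call was lost without JPX-0750 replicate 1 or 2 (0.106 and 0.104), without DMSO replicate 2 or 3 (0.0508 and 0.108) and under total-sum scaling (0.0926), over a range of 0.00523 to 0.108 in limma. With JPX-0700 it was lost under total-sum scaling, at 0.0649, over a range that began at 0.00184.

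IER3, which protects cells from apoptosis and restrains NF-kB, was listed at 0 in all 9 libraries and was not tested. It lies at chr6:30743199-30744547 on the minus strand, within the major histocompatibility region. Of 157 protein-coding genes of that region, 127 (80.9%) were also listed at 0 in every library. Elsewhere on chromosome 6 that held for 21.0% of 742 genes, and on other chromosomes for 22.0% of 17140. Genes near IER3 that cells in general use, ABCF1, GNL1, DHX16, MRPS18B and HLA-E, were among those at 0. The zeros of IER3 are therefore given as listed and not as a level.

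**Figure D3:**
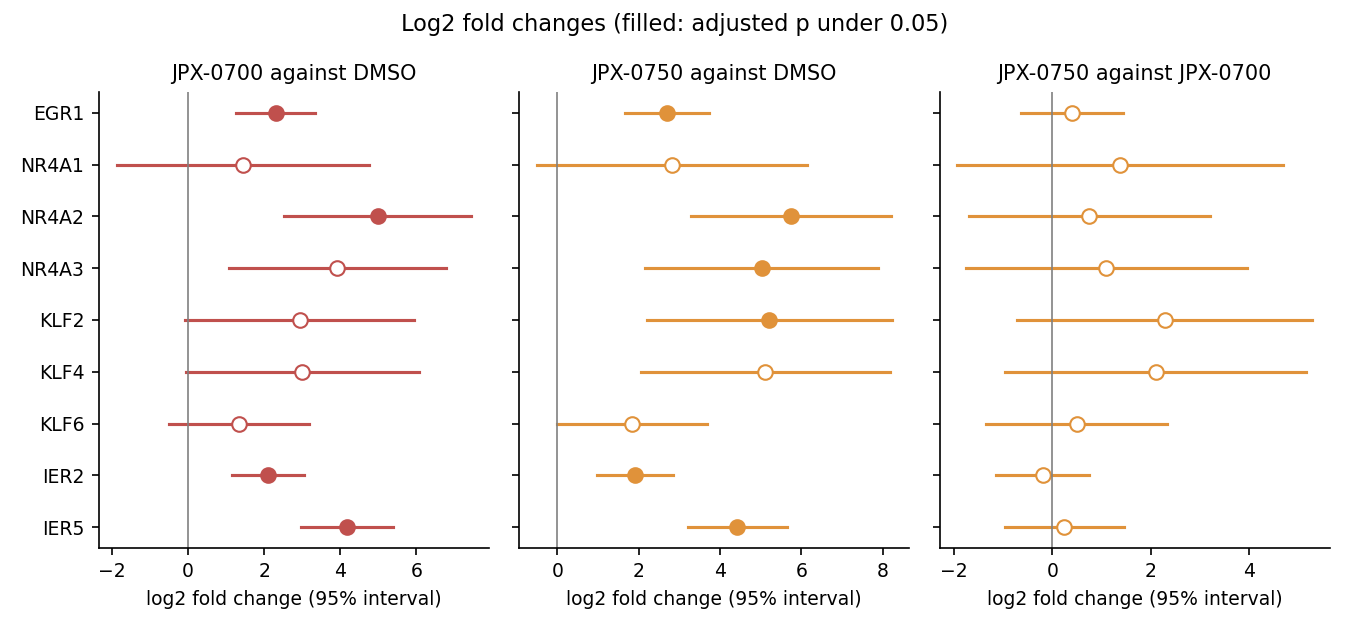
Log2 fold changes with 95% intervals from limma for the 9 tested members in JPX-0700 against DMSO, JPX-0750 against DMSO and JPX-0750 against JPX-0700, with filled points where adjusted p was under 0.05. Filled points number 4, 6 and 0 in the 3 panels, and the intervals of KLF2, KLF4 and NR4A1 are the widest.

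JPX-0750 and JPX-0700 were compared directly as 1 pair of compounds at 24 h, with doses not known. For 0 of 9 members was adjusted p under 0.05 in limma, and 0 had an unadjusted p under 0.05, where 0% of all genes were called and 3.21% had an unadjusted p under 0.05. KLF2 was the 1 member whose JPX-0750 values all lay above its JPX-0700 values, where 4.72% of all genes did so and 3.63% lay wholly below, and the other 8 members overlapped. KLF2 had a log2 fold change of JPX-0750 over JPX-0700 of 2.29 (95% interval -0.72 to 5.29, adjusted p = 0.848 in limma). KLF4 had 2.11 (-0.95 to 5.17), NR4A1 1.38 (-1.93 to 4.70) and NR4A3 1.10 (-1.76 to 3.96). Leaving out 1 library moved KLF2 to 1.26 (without JPX-0700 replicate 3) and 2.998 (without JPX-0700 replicate 2), and KLF4 to 0.84 and 2.99 (without JPX-0700 replicates 3 and 1). It moved NR4A1 between 0.66 and 2.81 and NR4A3 between 0.64 and 1.67. The upper bounds of these 4 genes leave room for differences of many-fold. The values were better bounded for IER2, -0.20 (-1.14 to 0.74), EGR1, 0.40 (-0.63 to 1.43), and IER5, 0.25 (-0.97 to 1.46). NR4A2 had 0.76 (-1.70 to 3.21), and 0.08 and 1.89 without JPX-0700 replicates 1 and 3, and KLF6 had 0.50 (-1.35 to 2.34). The median over the 9 was 0.76, where that of all genes was 0.10, and 8 of 9 were above 0. Since both compounds share the DMSO libraries in the comparisons above, the number of members that pass with each is not read as an overlap.

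**Figure D4:**
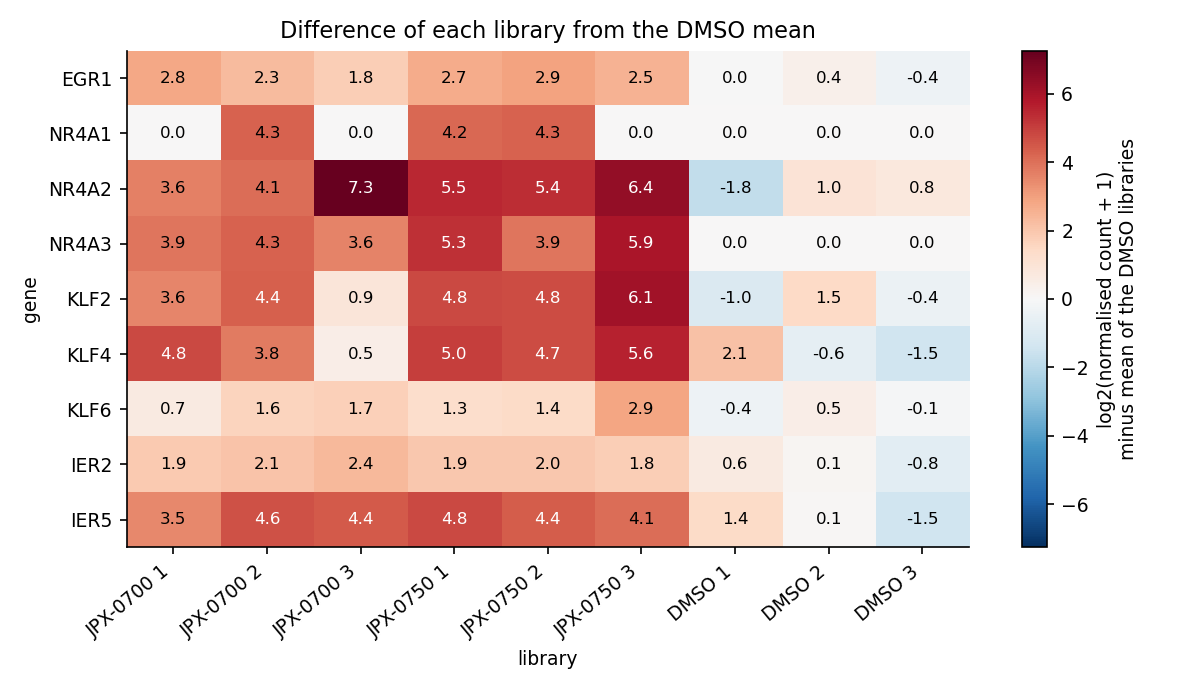
Difference of each library from the mean of the DMSO libraries, on the log2(normalised count + 1) scale, for the 9 members (rows) in the JPX-0700, JPX-0750 and DMSO libraries (columns), with 1 cell per library. JPX-0700 replicate 3 is the highest cell of its group for NR4A2, at 7.26, and the lowest for KLF2 and KLF4, at 0.88 and 0.46.

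Within the treated groups the members ranked the libraries differently. JPX-0700 replicate 3 had the highest NR4A2, KLF6 and IER2 of its group and the lowest EGR1, KLF2, KLF4 and NR4A3. JPX-0750 replicate 3 had the highest NR4A2, NR4A3, KLF2, KLF4 and KLF6 of its group and the lowest EGR1, IER2 and IER5. Both are the libraries with the fewest genes and the most reads of their groups, and the part of that in the members' order was not tested. With DMSO, IER5, IER2 and KLF4 were highest in replicate 1, and NR4A2, KLF2, KLF6 and EGR1 in replicate 2. The coefficient of variation with JPX-0750 ran from 6.1% for IER2 to 86.7% for NR4A1, and with JPX-0700 from 17.3% for IER2 to 173.2% for NR4A1. Together the members took 0.114% to 0.182% of reads with JPX-0700, 0.161% to 0.188% with JPX-0750 and 0.0158% to 0.0422% with DMSO.

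For 8 of the members the gene with the most similar pattern is named, taken as the one with the smallest Euclidean distance between centred log2 values over the 9 libraries. It was ASNS, which makes asparagine, for IER2 (distance 0.874, where the median gene lay at 5.25). ASNS averaged 284.5 ± 110.7 normalised counts with JPX-0700, 302 ± 34.0 with JPX-0750 and 56.7 ± 23.4 with DMSO (SD, n = 3 each). For EGR1 it was ETV1 (1.198), for NR4A2 LINC01021 (1.51), for NR4A3 LOC101927100 (1.55) and for IER5 LOC644656 (1.52). ETV1 averaged only 5.24 normalised counts with JPX-0700, 10.3 with JPX-0750 and 0.563 with DMSO. LOC101927100 averaged 11.4, 20.5 and 0.179 in the same order, so the matches to ETV1 and LOC101927100 rest on few reads. For KLF2 it was ST20-AS1 (1.80), for KLF4 NKAPL (2.42) and for NR4A1 CNN1 (0.378). The NR4A1 match rests on both genes being at 0 in the same libraries. Among the members themselves the closest to each other were EGR1 and IER2, at 1.69, and 39 other genes lay closer to EGR1 than IER2 did.

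The list of 36 other immediate early genes had 30 tested members, of which 11 rose and 0 fell with JPX-0700 and 11 rose and 0 fell with JPX-0750, where 5.28% and 3.9% of all genes tested rose. With each compound these were FOS, FOSB and JUN of the AP-1 factor, BTG1, ZFP36, the phosphatase gene DUSP1, PPP1R15A, GADD45B, RHOB, IER5L and NFKBIA. Both comparisons use the same DMSO libraries, and the list was chosen with earlier results of these data known. The counts and medians of the list are therefore a description. PPP1R15A, which directs dephosphorylation of eIF2 alpha, had log2 fold changes of 6.12 with JPX-0700 and 5.49 with JPX-0750, with adjusted p = 7.6e-08 and 3.0e-07 in limma. GADD45B had 4.75 and 4.40, with adjusted p = 3.7e-06 and 9.1e-06 in limma. JUN had 9.40 and 8.06, with 8.04 and 6.70 without DMSO replicate 1 and 10.3 and 8.99 without DMSO replicate 2. FOSB rested on 3 DMSO reads, and its read ratios were 869 (exact counting interval 295 to 4233) with JPX-0700 and 545 (184.9 to 2657) with JPX-0750. Its DMSO mean, 0.538 normalised counts, was under the minimum of 5, so FOSB entered the test through its treated libraries. The list's median log2 fold change was 2.03 with JPX-0700 and 2.43 with JPX-0750, where that of all genes was 0.14 and 0.26. The other 19 did not pass with either compound, among them FOSL1, FOSL2, DUSP6 and MCL1. DUSP6, a feedback phosphatase of ERK, had 0.02 and -0.10, with adjusted p = 0.991 and 0.965 in limma. Without the fewest-gene libraries 16 rose with JPX-0700 and 15 with JPX-0750, and 0 fell. Of all 12301 genes, 2158 rose and 443 fell in that fit with JPX-0700, and 2559 were called in either direction with JPX-0750.

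**Figure D5:**
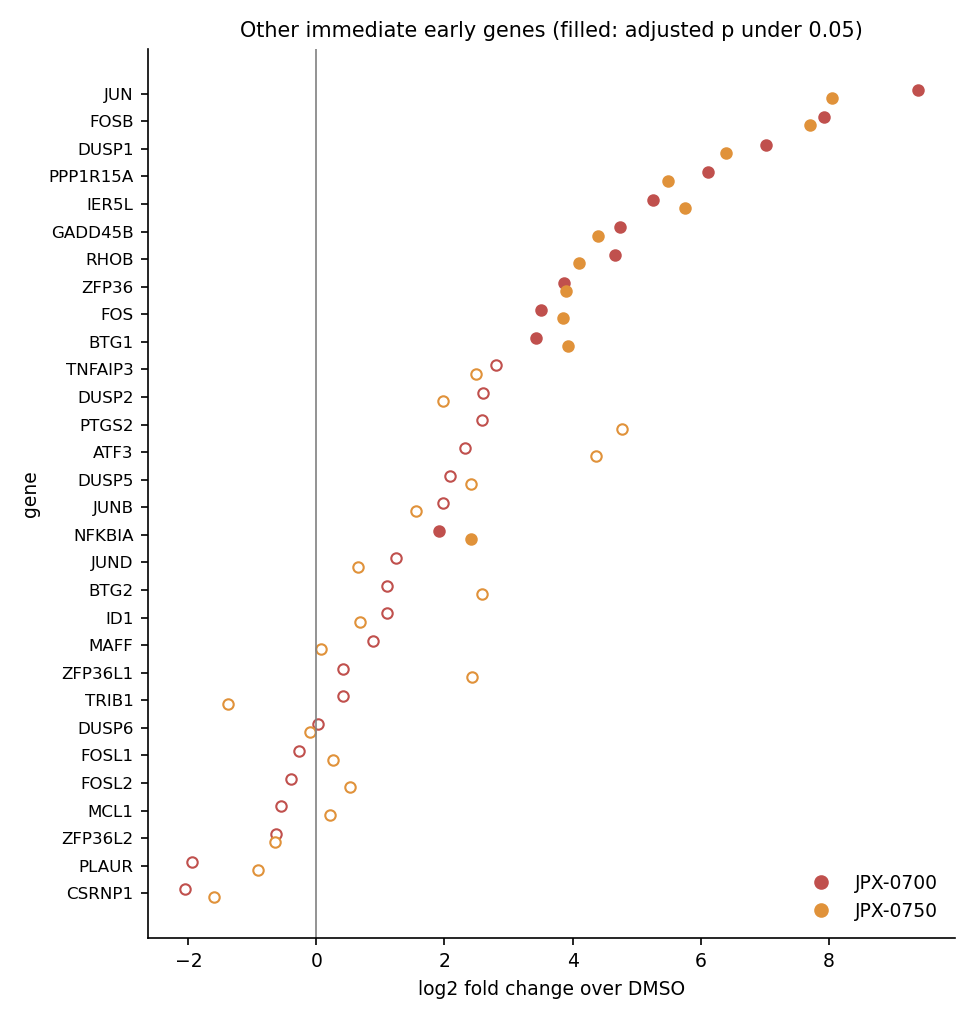
Log2 fold changes over DMSO of the 30 tested genes on the list of other immediate early genes, with JPX-0700 and JPX-0750 as separate colours and filled points where limma's adjusted p was under 0.05. For each compound 11 points are filled, all to the right of 0, with JUN at 9.40 and 8.06.

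Of 30 genes on the relay from ERK to SRF, from ERK5 to MEF2 and through CREB, 26 were tested. With JPX-0700 BRAF rose and RXRA fell, and with JPX-0750 BRAF rose and 0 fell, with medians of -0.03 and 0.23. That is 2 and 1 of 26, near the 5.77% and 3.98% of all genes called, and so not a result about the relay as a whole. BRAF, a kinase upstream of ERK, had log2 fold changes of 4.59 and 4.94 on 12 DMSO reads, with adjusted p = 0.0423 and 0.0362 in limma. Its DMSO mean, 2.10 normalised counts, was under the minimum of 5, so BRAF entered the test through its treated libraries. The BRAF call was lost in 10 of 19 alternatives with JPX-0700 and in 9 of 19 with JPX-0750, with adjusted p up to 0.157 and 0.17, down to 0.00969 and 0.00327. Without DMSO replicate 3 the values were 5.44 and 5.79. Leaving out JPX-0700 replicates 1 or 2, JPX-0750 replicates 1 or 2, or DMSO replicates 1 or 2 ended the JPX-0700 call. Leaving out JPX-0700 replicate 1, any JPX-0750 replicate or DMSO replicates 1 or 2 ended the JPX-0750 call. RXRA, a nuclear receptor that pairs with NR4A1 and NR4A2, averaged 91.5 ± 61.9 normalised counts with JPX-0700, 177 ± 78.8 with JPX-0750 and 431 ± 51.5 with DMSO (SD, n = 3 each). Its log2 fold change was -2.58 with JPX-0700 (adjusted p = 0.0333 in limma) and -1.36 with JPX-0750 (0.39). RXRA was -1.77 without JPX-0700 replicate 3, and its call was lost without JPX-0750 replicate 3 or any 1 DMSO replicate, over a range of 0.0152 to 0.148. The CREB coactivator gene CRTC2 had 9, 36 and 1 reads with JPX-0700, JPX-0750 and DMSO, ratios of 59.4 (8.23 to 2604) and 180.6 (30.4 to 7328), and adjusted p = 0.37 and 0.083 in limma. CRTC2 too entered the test through its treated libraries, with a DMSO mean of 0.179. MEF2C had 1.45 and 0.80, with adjusted p = 0.0791 and 0.451 in limma. Without the fewest-gene libraries 7 of the 26 rose and 1 fell with JPX-0700, and 5 rose and 0 fell with JPX-0750. Of all 12301 genes, 2158 rose and 443 fell in that fit with JPX-0700, and 2559 were called in either direction with JPX-0750.

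The members share compact genes. In GENCODE v29 the principal transcripts of the 9 tested members had a median of 4 exons and a median span of 4795 bases, and 8 of 9 (88.9%) spanned under 10 kb, the exception being NR4A3 at 45037 bases. The 10676 tested protein-coding genes other than these had a median of 9 exons and 27928 bases, and 21.9% spanned under 10 kb. IER2 and IER5 have 1 exon each. The 3′ untranslated regions held a median of 3.05 ATTTA motifs per kb for the members and 1.74 for the others, where ATTTA is the core of AU-rich elements that shorten mRNA life. The longer element TTATTTATT was in 1 of the 9, IER5, with 3 copies, and in 8.49% of the others. IER2 had 0 ATTTA motifs, EGR1 0.81 per kb and NR4A1 5.34 per kb.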

How the data were processed

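RNA of MV4-11 cells was read in 9 libraries with QuantSeq, which sequences the 3′ end of polyadenylated RNA, per the labels' protocols. Per the submitters' processing notes the tools were STAR 2.4.2a, featureCounts 2.0.3, SAMtools 1.4, FastQC 0.11.9 and DESeq2, on GRCh38. No source used here says which strand was counted or how reads with several mapping places were handled. The authors deposited normalised counts, written with decimal commas. At a tolerance of 1e-06, 100% of the values of a library were whole multiples of its smallest value, so reads were recovered by division. No molecular identifiers are named, so counting intervals (95%, exact) cover counting error only, and floors of 3 reads only that of the DMSO reads.

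limma 3.58.1 in R 4.3.3 was fitted to log2(normalised count + 1) with a mean per group over 9 libraries, 6 residual degrees of freedom and a variance trend. Genes with a mean of at least 5 normalised counts were tested, 12301 of 26929. Tests were two-sided, with Benjamini-Hochberg adjustment over all genes tested. A fold change is on the log2(normalised count + 1) scale and can lie below or above the ratio of group means for weakly read genes. With JPX-0700 that of NR4A2 was 31.7 against a ratio of means of 58.2. With JPX-0750 that of KLF4 was 34.7 against 25.3. The member genes and the lists were chosen with earlier results of these data known. All members were named, along with up to 4 tested genes of each list with the smallest p in either compound, and the 1 gene nearest in pattern to each member. A list gene and a nearest gene that this rule picked are not reported here. Sequences and positions come from RefSeq tables of GRCh38.p14, in which 24159 symbols matched directly and 1498 by a synonym, with no entry used for NR4A2 and IER3 promoters. Gene structure comes from GENCODE v29. Count-based alternatives with edgeR and DESeq2 were not run, and voom on recovered reads took their place.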

Additional observations from a re-analysis of the deposited data

How the results depend on the processing

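The number of genes called with JPX-0700, 710, was 373 when only the 2 groups compared were fitted, 1299 by voom on recovered reads and 2601 when the fewest-gene library of each group was left out. With JPX-0750, 489 were called, against 795, 945 and 2559 in the same fits. The last pair of settings was chosen after seeing the data. Leaving out 1 library gave 390 to 954 genes with JPX-0700 and 254 to 1096 with JPX-0750. It gave 3 to 5 members with JPX-0700 and 3 to 7 with JPX-0750. Under total-sum scaling 2 members were called with JPX-0700 (NR4A2 and IER5) and 3 with JPX-0750. In the fit without those 3 libraries 7 members were called with JPX-0700. JPX-0750 against JPX-0700 gave 0 genes and 0 members in every one of 20 alternatives. Its single-gene differences changed sign for KLF6 without JPX-0750 replicate 3 (range without 1 library -0.0122 to 0.766), for IER5 without JPX-0700 replicate 1 (-0.0958 to 0.463) and for IER2 after quantile normalisation (0.0298). The cause of these changes was not tested.

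Deviations from the group means correlated between same-numbered treated and DMSO libraries at -0.143 to -0.0861 for JPX-0700 and -0.121 to -0.0436 for JPX-0750. For unlike numbers this was -0.0578 to 0.188 and -0.0635 to 0.13. Between the compounds it was 0.129 to 0.19 for the same number and -0.198 to 0.153 for unlike numbers. Since deviations sum to 0 within each group of 3, these values cannot decide whether a number marks a shared culture or day. With a replicate block 694 genes and 4 members were called with JPX-0700, 473 genes and 5 members with JPX-0750, and 0 genes between the compounds. With the block NR4A3 had adjusted p = 0.0648, KLF2 0.0547 and KLF4 0.0492 with JPX-0750 in limma.

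Total-sum scaling put the median of all genes, as a log2 fold change, at -0.50 with JPX-0700 and -0.23 with JPX-0750, TMM at -0.13 and 0.01, and quantile normalisation at -0.18 and -0.18. Under total-sum scaling EGR1 and IER2 with JPX-0700 stood at 1.57 and 1.37 beside that median of -0.50. At 1 read per 1.67 to 4.61 normalised counts in treated libraries, depth limits NR4A1, NR4A3, KLF2 and KLF4 the most. The count-based tools planned as alternatives, edgeR and DESeq2, were not run.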
